A study of Mus musculus with 12 samples.

Results

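Smooth muscle forms the outer wall of the mouse colon and a thin layer beneath its mucosa, and the 10 genes described here mark that muscle and the pacemaker cells that lie within it. They are Acta2, Actg2, Myh11, Des, Tagln, Cnn1, Lmod1 and Synpo2, which encode parts of the contractile apparatus, and Kit and Ano1, which mark the interstitial cells of Cajal. The genes were taken from the deposited count table by symbol. All 10 were found among its 18514 genes, and all 10 passed the filter on low counts that left 15484 genes for testing. None of the 10 passed an adjusted p of 0.05 between any groups compared (edgeR), although 32.7% of all genes tested did so between Model and Ctrl. With a single Model library left out, Des, Kit or Ano1 passed, as given below.

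Contraction of the gut wall follows a known chain. Slow electrical waves start in interstitial cells of Cajal, which need the receptor tyrosine kinase Kit to develop and the calcium-activated chloride channel Ano1 to fire. The wave opens calcium channels in the coupled muscle cells, calcium activates myosin light chain kinase, and smooth muscle myosin (Myh11) then pulls on actin filaments of alpha (Acta2) and gamma (Actg2) smooth muscle actin. Transgelin (Tagln), calponin (Cnn1) and leiomodin (Lmod1) bind those filaments, desmin (Des) forms the intermediate filaments that link the contractile units, and synaptopodin 2 (Synpo2) sits in dense bodies and plaques. Serum response factor and its cofactor myocardin switch on most of these genes through a DNA element called the CArG box.

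The RNA came from colorectal tissue of male C57BL/6 mice bought at 4 weeks of age, and 3 libraries were available for each of 4 groups. Ctrl mice (treatment label NC) had ordinary drinking water and did not swim, and Ctrl_Swim mice (swim only) had ordinary water and swam. Model mice (AOM/DSS treated) received one injection of 10 mg/kg azoxymethane (AOM), a carcinogen, followed by 3 cycles of 2% (w/v) dextran sodium sulfate (DSS), which damages the colon lining, each of 7 days with 2 weeks of sterile water after it. Model_Swim mice (AOM/DSS treated+swimming pretreatment) received the same and swam. Swimming rose from 20 to 90 min per day and ran for 2 months before the AOM injection and on to the end, while untrained mice stood in shallow water in the same container. The tissue held the whole mix of cells of the bowel wall, so for every value below fewer cells of a type and less RNA per cell cannot be told apart. The labels number the samples within each group but do not tie a library to an animal, so p-values measure the spread between these libraries.

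Library totals ran from 17256953 to 19451055 counts. A count of 3 corresponds to 0.154 to 0.174 CPM, a count scaled to the depth of its library, and no member had fewer than 1168 counts in any library. The 10 genes together took 0.640% to 0.979% of a library. All 10 colon epithelium markers were detected, with Krt8 between 3252 and 5528 CPM. Several libraries also carried RNA of other tissues. The summed level of 11 pancreatic acinar genes was 44554 CPM in Model 1 and 21778 CPM in Model 3, against at most 97.1 CPM in each of the other libraries. The summed level of 9 squamous epithelium genes, which mark lining such as that of the anal canal, reached 562, 1445 and 9.24 CPM in Model 1, 2 and 3. In Ctrl it stayed between 5.88 and 8.33 CPM, in Ctrl_Swim it ran from 6.38 to 387 CPM and in Model_Swim from 112 to 1034 CPM. The part that this tissue plays in the results below was not tested, apart from the values given without single libraries.

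The promoters of 4 of the genes are shown at the sequence that serum response factor is known to read. Acta2 and Lmod1 were chosen as the 2 members that hold a match to it, and Kit and Ano1 as the pacemaker genes. Sequences are from RefSeq on the build GRCm38.p6, run 5′ to 3′ on the strand of the gene from 250 bases before to 50 bases after its start, and are in lower case with matches to the CArG box in capitals. A match had at most 1 mismatch to the consensus, which reads the same on both strands. The starts that RefSeq gives for Acta2 and Ano1 lie inside the annotated genes, downstream of their outermost starts. The marked matches of Acta2 therefore also lie inside its annotated span.
Acta2, chr19:34255324-34255623, minus strand: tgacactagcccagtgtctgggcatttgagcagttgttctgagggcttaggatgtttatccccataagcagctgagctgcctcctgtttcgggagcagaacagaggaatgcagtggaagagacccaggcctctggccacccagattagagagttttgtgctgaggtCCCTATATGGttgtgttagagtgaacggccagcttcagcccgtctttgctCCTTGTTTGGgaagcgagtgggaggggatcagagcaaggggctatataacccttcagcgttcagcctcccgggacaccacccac
Lmod1, chr1:135324563-135324862, plus strand: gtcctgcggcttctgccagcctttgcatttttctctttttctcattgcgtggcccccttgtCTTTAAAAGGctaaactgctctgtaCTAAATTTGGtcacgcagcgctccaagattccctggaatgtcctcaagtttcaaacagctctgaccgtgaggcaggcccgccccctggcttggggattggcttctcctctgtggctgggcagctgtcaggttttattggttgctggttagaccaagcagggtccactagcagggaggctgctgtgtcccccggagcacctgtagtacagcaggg
Kit, chr5:75574737-75575036, plus strand: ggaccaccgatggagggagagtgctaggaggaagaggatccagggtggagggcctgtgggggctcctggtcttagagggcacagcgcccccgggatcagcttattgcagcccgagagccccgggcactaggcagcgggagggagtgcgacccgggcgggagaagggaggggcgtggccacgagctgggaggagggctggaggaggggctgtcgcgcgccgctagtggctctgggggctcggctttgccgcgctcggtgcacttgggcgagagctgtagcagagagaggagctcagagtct
Ano1, chr7:144738524-144738823, minus strand: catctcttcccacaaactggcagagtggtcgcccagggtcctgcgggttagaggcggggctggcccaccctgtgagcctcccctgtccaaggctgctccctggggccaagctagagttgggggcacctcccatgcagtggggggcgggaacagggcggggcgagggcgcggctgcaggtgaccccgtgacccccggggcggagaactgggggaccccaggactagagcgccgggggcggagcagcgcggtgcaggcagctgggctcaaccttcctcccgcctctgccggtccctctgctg

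Acta2 held a match at -84 (CCCTATATGG) and another at -34 (CCTTGTTTGG), counted from the start to the first base of the match. Lmod1 held one at -189 (CTTTAAAAGG) and one at -164 (CTAAATTTGG). Kit and Ano1 held none in this window, and neither did the muscle genes Des, Cnn1 and Synpo2. Of the 7 members with a promoter in the table, 2 held such a match (28.6%), against 21.1% of all 32851 promoters, and 0 held an exact one, against 1.63% of all. These are letters in a window and not shown to be bound, and a window without a match says nothing of the factor.

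The genes lie on 8 chromosomes of GRCm38.p6. Acta2 is at chromosome 19, 34240336 to 34255585, and Actg2 at chromosome 6, 83512909 to 83536251, both on the minus strand. Myh11 is at chromosome 16, 14194527 to 14292188 (minus), and Des at chromosome 1, 75360292 to 75368579 (plus). Tagln (chromosome 9, 45929628 to 45936058, minus) and Cnn1 (chromosome 9, 22099221 to 22109221, plus) share a chromosome, as Des does with Lmod1 (chromosome 1, 135324813 to 135368065, plus). Synpo2 is at chromosome 3, 123076519 to 123236168 (minus), Kit at chromosome 5, 75574987 to 75656722 (plus), and Ano1 at chromosome 7, 144588549 to 144752026 (minus). At most 0.391% of the 50-base stretches of a member's transcripts occur in another gene, so reads of the actins and myosins could mostly be told apart. Exons of Des and Tagln overlap genes on the opposite strand (Gm15179 for Des, Pcsk7 and Gm48529 for Tagln), and whether the counting used strand is not given in the sources used here.

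Per transcript length, gamma actin was the most abundant member. In FPKM (fragments per kilobase of transcript, scaled to the depth of the library), the means over 12 libraries were 839.8 ± 120.5 for Actg2, 674 ± 104 for Tagln and 483 ± 66.8 for Acta2 (SD, n = 12). This order held in all 12 libraries. Myh11 (331 ± 46.2 FPKM) and Des (326 ± 44.6) did not differ beyond their spread, Myh11 being above Des in 6 of 12 libraries, and both lay above Cnn1 (249.9 ± 42.8). The remaining genes were far lower on this scale. Synpo2 had 29.1 ± 3.97 FPKM, Ano1 25.4 ± 9.001, Lmod1 18.9 ± 2.31 and Kit 18.0 ± 2.92. Neighbours among these low genes overlapped, with Synpo2 above Ano1 in 10 of 12 libraries, Ano1 above Lmod1 in 9 and Lmod1 above Kit in 8.

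The first question is whether AOM/DSS treatment, which models colitis-associated tumorigenesis, changed these genes, and Model against Ctrl bears on it. Levels from here on are TMM-scaled CPM, which compare libraries for one gene but not genes with each other.

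The filament proteins come first. Acta2 had 1317, 1392 and 1413 CPM in Ctrl 1, 2 and 3, and 1116, 1701 and 1192 CPM in Model 1, 2 and 3. The Model libraries lay on both sides of the Ctrl libraries, with Model 2 the highest of all 12 libraries and Model 1 the lowest. Actg2 had 1232, 1147 and 1184 CPM in Ctrl, and 929, 1303 and 862 CPM in Model. Here too Model 2 was above every Ctrl library, and the other two Model libraries were below every one. The log2 fold change was -0.04 ± 0.15 for Acta2 (SE, adjusted p = 0.860, edgeR) and -0.20 ± 0.16 for Actg2 (adjusted p = 0.357, edgeR).

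Myh11, the motor protein, had 2178, 2239.8 and 2253 CPM in Ctrl, and 1546, 2465 and 1996 CPM in Model. Model 2 was again above the Ctrl range, and Model 1 was the lowest of all libraries. The log2 fold change was -0.15 ± 0.15 (adjusted p = 0.464, edgeR).

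Des, the muscle intermediate filament, had 1041, 1077 and 1093 CPM in Ctrl, and 817, 1145 and 771 CPM in Model. It had the lowest fold change of the muscle genes, -0.23 ± 0.15 on the log2 scale (adjusted p = 0.240, edgeR). Without Model 2 it was -0.41 with an adjusted p of 0.0324 (edgeR), so this library decides whether Des passed.

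The actin-binding regulators behaved alike. Tagln had 999.6, 1087 and 1060.4 CPM in Ctrl and 923, 1287 and 814 CPM in Model, a log2 fold change of -0.06 ± 0.15. Cnn1, which slows the myosin motor, had 481, 542 and 534 CPM in Ctrl and 457, 598 and 433 CPM in Model, a log2 fold change of -0.07 ± 0.15. In both genes Model 2 was above the Ctrl libraries and the other two Model libraries below them. Lmod1, which nucleates actin filaments, had 64.5, 84.0 and 77.1 CPM in Ctrl and 70.4, 86.7 and 69.2 CPM in Model, and its groups overlapped with equal means (75.2 ± 9.91 and 75.4 ± 9.76 CPM, SD, n = 3). Synpo2 had 252, 249 and 229 CPM in Ctrl and 159.6, 259 and 209.6 CPM in Model, with a log2 fold change of -0.22 ± 0.16. The adjusted p-values of these 4 genes ran from 0.334 (Synpo2) to 0.985 (Lmod1, edgeR).

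**Figure D1:**
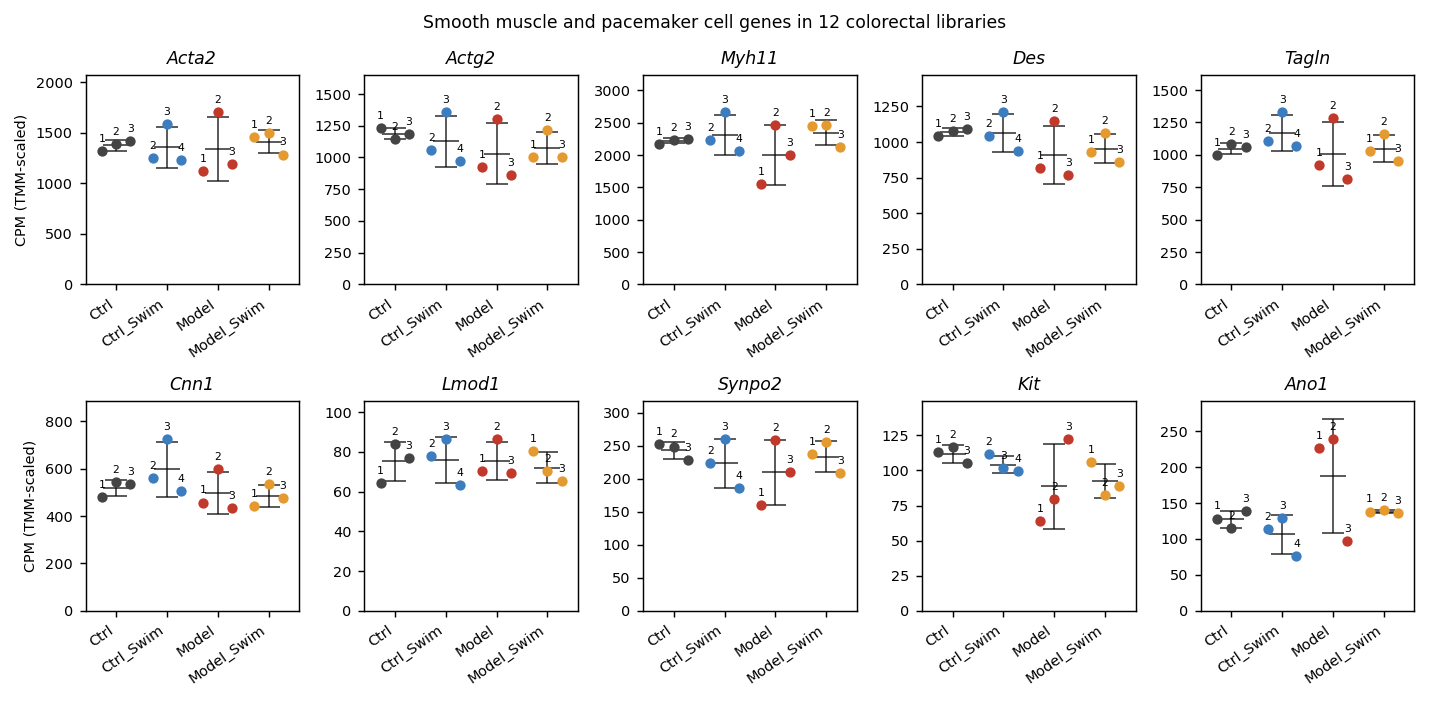
TMM-scaled CPM (vertical axes, from 0) of the 10 genes in the libraries of Ctrl, Ctrl_Swim, Model and Model_Swim, with the replicate number above each point, and bars for the mean ± SD (n = 3). Model 2 lies above the Ctrl libraries in all 8 muscle genes, and the groups overlap in every gene between Model and Ctrl.

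Thus 0 of 10 members passed an adjusted p of 0.05 between Model and Ctrl, against 32.7% of all 15484 genes tested. At an unadjusted p under 0.05, edgeR gave 0 members, against 45.2% of all genes, and DESeq2 also gave 0 members. In 0 of 10 members did the 3 Model libraries fall entirely on one side of the 3 Ctrl libraries, against 44.2% of all genes. The median log2 fold change of the 10 was -0.11, beside 0.01 over all genes, and 7 of the 8 muscle genes had a value below 0. The 95% intervals of the 8 muscle genes reached from 0.670-fold to 1.24-fold, and changes within these limits are not excluded by the 3 libraries per group.

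**Figure D2:**
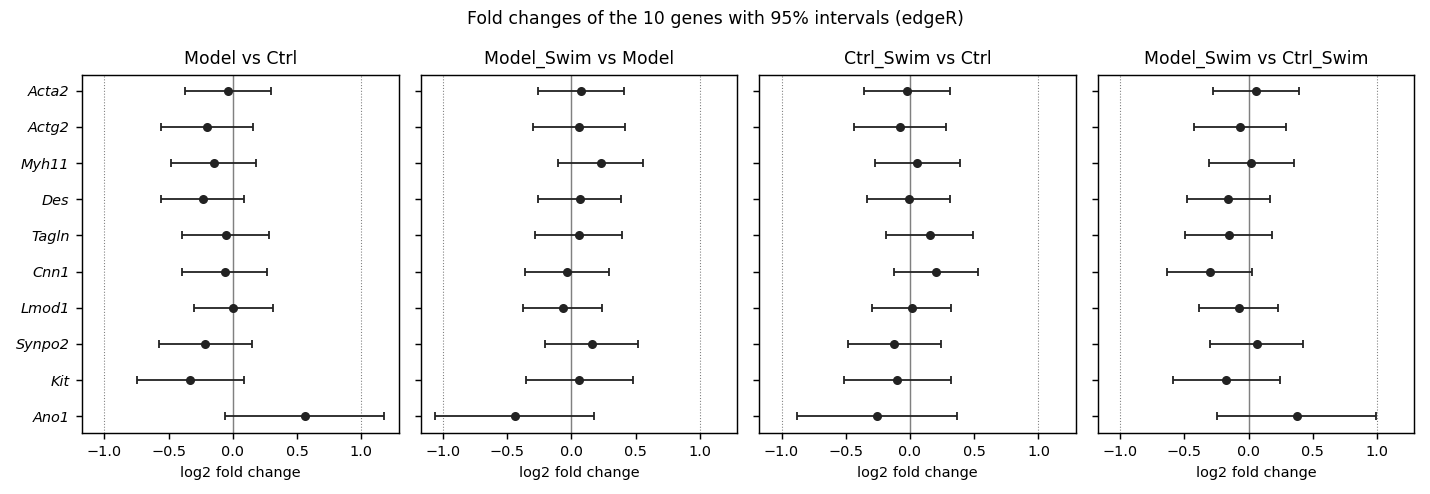
Log2 fold change of each gene (points, edgeR) with its 95% interval (bars) in the 4 comparisons of groups, with dotted lines at a 2-fold change either way. Every interval holds 0, and the widest are those of Ano1.

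The spread between libraries differed from group to group. The coefficient of variation of the 8 muscle genes had a median of 3.96% in Ctrl, 15.2% in Ctrl_Swim, 23.0% in Model and 10.1% in Model_Swim. In Ctrl_Swim 3 and Model 2 all 8 muscle genes lay above their own means over the 12 libraries. In Model 1 and Model 3 all 8 lay below them. Other libraries split the genes, as in Model_Swim 1, where they ran from -0.23 to 0.16 around those means on the log2 scale. Ctrl_Swim 3 had the highest level of all 12 libraries in 6 of the 8 genes and Model 2 in the other 2, while Model 3 was lowest in 4, Model 1 in 3 and Ctrl_Swim 4 in 1. From the lowest to the highest library the fold range was 1.37 for Lmod1 to 1.72 for Myh11. Of 51 other contractile and calcium-handling genes, 25 were highest in Model 2 and 8 in Ctrl_Swim 3. Model 1 was among the lowest 2 libraries in 30 of the 51 and Ctrl_Swim 4 in 16, but Model 3 in no more than 11. The summed level of 9 fibroblast markers was highest in Model 1 (2946 CPM), where most muscle genes were low. It was 2831 CPM in Model 2, where the muscle genes were high, and 2642.5 CPM in Model 3, where they were low.

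**Figure D3:**
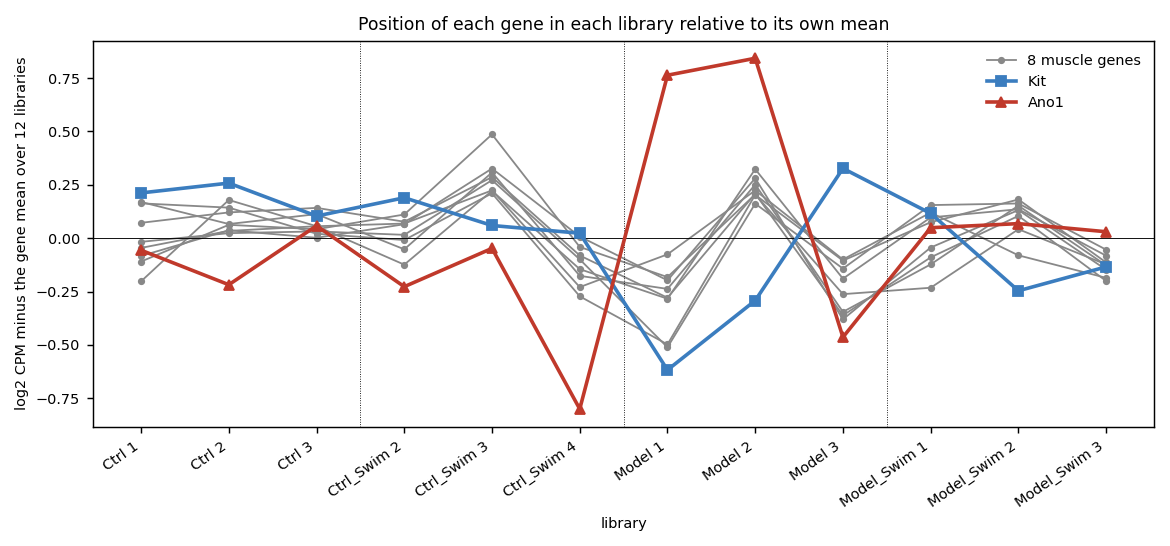
Log2 CPM of each gene in each library minus its mean over the 12 libraries (vertical axis), with the 8 muscle genes in grey, Kit in blue and Ano1 in red. The muscle genes rise together in Ctrl_Swim 3 and Model 2 and dip together in Model 1 and Model 3, while Ano1 is high and Kit low in Model 1 and Model 2.

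The pacemaker genes had another pattern. Ano1 had 129, 115 and 139 CPM in Ctrl, and 227, 239.9 and 96.9 CPM in Model. Model 1 and Model 2 were the 2 highest of all 12 libraries, and Model 3 was below every Ctrl library. The log2 fold change was 0.56 ± 0.28 (adjusted p = 0.145, edgeR). Kit had 113, 117 and 105 CPM in Ctrl, and 63.7, 79.8 and 123 CPM in Model. The order was turned around, with Model 1 and Model 2 the 2 lowest of all libraries and Model 3 the highest. The log2 fold change was -0.33 ± 0.19 (adjusted p = 0.195, edgeR).

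Whether either gene passed depended on 1 library. Without Model 3, Ano1 rose by 0.88 (adjusted p = 0.00261, edgeR) and Kit was lower, at -0.63 (adjusted p = 0.00273, edgeR), both on the log2 scale. With Model 2 as the only Model library the log2 fold changes were 0.89 (adjusted p = 0.00912) and -0.51 (adjusted p = 0.0159, edgeR), the lone library being assumed to vary like the others. Set against the mean of the 8 muscle genes in the same library, Ano1 stood at -1.22 and -1.66 in Model 1 and Model 2 on the log2 scale, and between -2.94 and -2.11 in the other 10 libraries. Ano1 thus also stood highest in those 2 libraries relative to the muscle genes, whereas Kit, at -3.05 and -3.24, was close to Model_Swim 2 (-3.07) and Ctrl_Swim 3 (-2.95).

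Car1 and the squamous genes divided the Model libraries in the same way. Car1, carbonic anhydrase of surface colonocytes, had 410.4 and 277 CPM in Model 1 and Model 2 but 4731 CPM in Model 3, and 6385 to 6821 CPM in Ctrl. The squamous genes were high in Model 1 and Model 2 and at the Ctrl level in Model 3, as given above, while the pancreatic genes were high in Model 1 and Model 3. The summed level of 10 colon epithelium markers was 12827, 12293 and 16831 CPM in Model 1, 2 and 3, against 22193 to 24535 CPM in Ctrl. Car1 is one of the 10, and the other 9 summed to 12416, 12016 and 12101 CPM in Model and 15808 to 17760 CPM in Ctrl, so without Car1 they did not set Model 3 apart. Ano1 is also known from epithelial and tumour cells, and Kit from mast cells. The part of these tissues in the Ano1 and Kit values was not tested.

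Mast cell markers, summed, ran in the opposite order to Kit in the Model libraries but not in Ctrl. Of 10 mast cell markers tested, 5 rose in Model and 0 fell, with a median log2 fold change of 1.67, beside 16.5% of all genes called higher. The summed level of the 12 markers in the table was 10.1 to 65.3 CPM in Ctrl and 123, 48.5 and 28.01 CPM in Model 1, 2 and 3, so of the 3 Model libraries the one with the least Kit had the most mast cell RNA. In Ctrl 1, 2 and 3 it was 65.3, 10.1 and 41.3 CPM, beside 113, 117 and 105 CPM of Kit. A relation of mast cell RNA to Kit was not tested. Hdc, which makes histamine, rose by 2.13 ± 0.64 on the log2 scale (adjusted p = 0.0267, edgeR), and the protease Cpa3 rose by 2.09 ± 0.68 (adjusted p = 0.0363). Those with the highest CPM, which is not a level per length, were Mcpt1 and Mcpt2, with 5.29 to 40.1 and 1.04 to 15.8 CPM in Ctrl, against 10.1 to 58.0 and 3.79 to 27.5 CPM in Model.

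Of 6 further genes tied to interstitial cells of Cajal, 1 fell and 0 rose between Model and Ctrl, with a median log2 fold change of -0.13, beside 16.2% of all genes that were called lower. Edn3, a peptide ligand of the endothelin B receptor, fell from 14.8, 14.1 and 13.96 CPM to 7.67, 9.70 and 9.87 CPM, a log2 fold change of -0.66 ± 0.14 (adjusted p = 0.00655, edgeR). Thbs4, with the highest CPM, had 169.6, 168 and 177 CPM in Ctrl and 238, 270.1 and 82.9 CPM in Model, so it was high in the same 2 Model libraries as Ano1. Kitl, the ligand of Kit, had 148 to 153 CPM in Ctrl and 124 to 139 CPM in Model (log2 fold change -0.19 ± 0.07, adjusted p = 0.0616, edgeR). Of 3 markers of the PDGFRA-positive interstitial cells, which relay inhibitory nerve signals, Pdgfra rose by 0.71 ± 0.15 on the log2 scale (adjusted p = 0.00586) and the other two did not pass. P2ry1 had 46.3 to 48.2 CPM in Ctrl and 31.5 to 48.4 CPM in Model.

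The ratio of gamma to alpha smooth muscle actin is independent of the scaling between libraries, since both genes are read in the same one. As log2(Actg2 CPM / Acta2 CPM) it was -0.10, -0.28 and -0.26 in Ctrl, and -0.27, -0.38 and -0.47 in Model. The groups overlapped, and the difference of -0.16 gave an exact two-sided permutation p of 0.2 (adjusted over the 4 comparisons 0.4), where 3 against 3 allows no p below 0.1. In FPKM the ratio lay between 1.49 and 2.02 in all 12 libraries. Model_Swim against Model differed by -0.02 (exact permutation p = 0.8), Ctrl_Swim against Ctrl by -0.06 (exact permutation p = 0.6) and Model_Swim against Ctrl_Swim by -0.13 (exact permutation p = 0.2).

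The second question is whether swimming altered the response to AOM/DSS, and Model_Swim against Model bears on it. The summed level of 9 pancreatic genes was 41247, 44.2 and 19974 CPM in Model 1, 2 and 3. In Model_Swim 1, 2 and 3 it was 3.41, 1.79 and 2.28 CPM. This difference between libraries coincides with the 2 groups and cannot be told apart from swimming here. In the 3 Model_Swim libraries Acta2 had 1454, 1493 and 1284 CPM and Actg2 had 1006, 1217 and 1002 CPM, all inside the range of the Model libraries. Myh11 had 2454, 2466 and 2123 CPM, of which the second was level with Model 2 and above the other two Model libraries. It had the largest fold change of the muscle genes, 0.23 ± 0.15 on the log2 scale (adjusted p = 0.538, edgeR). Des had 931, 1065 and 862 CPM, Tagln 1027, 1160.2 and 956 CPM, and Cnn1 442, 534 and 477 CPM. These also lay within the Model ranges. Lmod1 had 80.6, 70.2 and 65.2 CPM, with 1 library below the Model range, and Synpo2 had 237, 256 and 208 CPM, within it.

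Of the pacemaker genes, Ano1 had 138, 140.2 and 137 CPM in Model_Swim, between Model 3 and the other two Model libraries. Its log2 fold change was -0.44 ± 0.28 (adjusted p = 0.524, edgeR), and without Model 3 it was -0.75 with an adjusted p of 0.0257 (edgeR). Kit had 106, 82.4 and 89.1 CPM, inside the Model range, with a log2 fold change of 0.06 ± 0.19 (adjusted p = 0.920). In all, 0 of 10 members passed, beside 0.071% of all genes called. At an unadjusted p under 0.05, 0 members were found by edgeR or DESeq2, beside 13.6% of all genes by edgeR. In 0 of 10 did the groups not overlap, against 16.9% of all genes. The median log2 fold change of the 10 was 0.06 (all genes -0.01), and the intervals of the 8 muscle genes ran from 0.771-fold to 1.47-fold. Model and Model_Swim share no libraries, but Model serves in both this comparison and the one with Ctrl.

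The third question is what swimming did in healthy colon. Here the 9 pancreatic genes summed to 1.86, 25.9 and 1.79 CPM in Ctrl_Swim 2, 3 and 4, and to 30.7 to 34.9 CPM in Ctrl. Ctrl_Swim 2, 3 and 4 had 1247, 1585 and 1229 CPM of Acta2, 1056, 1356 and 969 CPM of Actg2 and 2228, 2660.5 and 2057 CPM of Myh11. In each of these genes Ctrl_Swim 3 lay above the Ctrl libraries and Ctrl_Swim 4 below them. Des had 1045, 1208 and 937 CPM, Tagln 1108, 1328 and 1065 CPM, and Cnn1 561, 727 and 505 CPM. Of the muscle genes, Cnn1 had the largest difference, 0.20 ± 0.15 on the log2 scale (adjusted p = 0.504, edgeR), and its groups overlapped. Lmod1 had 77.8, 86.7 and 63.3 CPM, and Synpo2 224, 261 and 187 CPM. Kit had 112, 102 and 99.4 CPM, and Ano1 114, 129 and 76.7 CPM, with log2 fold changes of -0.10 ± 0.19 and -0.26 ± 0.28. Of the 10 members 0 passed, where 0.969% of all genes did. At an unadjusted p under 0.05, 0 members were found by either tool, beside 17.6% of all genes by edgeR. In 0 of 10 did the groups not overlap, against 27.4% of all genes. The median log2 fold change of the 10 was -0.02 (all genes 0.00), and the intervals of the muscle genes ran from 0.716-fold to 1.45-fold.

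AOM/DSS among swimming mice was read from Model_Swim against Ctrl_Swim. Again 0 of 10 members passed, beside 5.18% of all genes. At an unadjusted p under 0.05 edgeR gave 0 members, beside 22.4% of all genes. DESeq2 gave 1 member, and the share of all genes with such a p by DESeq2 is not given here. At an adjusted p under 0.05 DESeq2 called 0 members, beside 1579 of all 15484 genes. Ano1 was the single member whose groups did not overlap, at 137 to 140.2 CPM in Model_Swim against 76.7 to 129 CPM in Ctrl_Swim. Such groups were found in 32.4% of all genes, and the log2 fold change of 0.37 ± 0.28 did not pass (adjusted p = 0.475, edgeR). Cnn1 had the lowest value, -0.30 ± 0.15 (adjusted p = 0.264, edgeR), with 442 to 534 CPM against 505 to 727 CPM. The median log2 fold change of the 10 was -0.07 (all genes -0.01), and the intervals of the muscle genes ran from 0.645-fold to 1.34-fold. The difference between the effects of swimming in treated and untreated mice, tested as an interaction, passed for 0 of 10 members and 0% of all genes. At an unadjusted p under 0.05, edgeR gave 0 members, beside 19% of all genes, and DESeq2 gave 0 members. DESeq2 called 750 genes for the interaction, 0 of them members. The intervals of the 8 muscle genes for this difference reached from 0.614-fold to 1.73-fold.

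Among the other genes of the contractile apparatus, 33 in number, 3 rose and 1 fell between Model and Ctrl, and the median log2 fold change was -0.04. Cnn2, a calponin found also outside muscle, rose from 42.9, 45.8 and 44.5 CPM to 70.0, 79.9 and 73.5 CPM, a log2 fold change of 0.75 ± 0.08 (adjusted p = 0.000422, edgeR). All 3 Model libraries were above all Ctrl libraries, unlike in Cnn1. Nexn, an actin-binding protein, rose by 0.42 ± 0.12 on the log2 scale (adjusted p = 0.0238, edgeR). Mustn1 rose by 0.35 ± 0.12 (adjusted p = 0.0402), and Myl6, the essential light chain that smooth and non-muscle myosin share, had a log2 fold change of -0.29 ± 0.08 (adjusted p = 0.0155, edgeR). Myl6, Nexn and Mustn1 no longer passed without Ctrl 2 or without Ctrl 3, Nexn and Mustn1 without Model 2, and Nexn without Ctrl 1. Flna and Tpm1, with the highest CPM of the list, were not among those that passed.

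Of 18 genes of excitation and calcium handling, 2 rose and 1 fell, with a median log2 fold change of 0.10. Chrm3, the muscarinic receptor through which acetylcholine contracts gut muscle, fell from 16.7, 14.6 and 16.7 CPM in Ctrl to 4.13, 6.97 and 6.83 CPM in Model, a log2 fold change of -1.42 ± 0.27 (adjusted p = 0.00363, edgeR). It is also known from epithelial cells. Its level was 5.97, 6.70 and 6.90 CPM in Ctrl_Swim and 7.54, 4.62 and 3.34 CPM in Model_Swim, so only the 3 Ctrl libraries were high. Ctrl_Swim against Ctrl gave -1.29 ± 0.27 (adjusted p = 0.0538, edgeR), and DESeq2 called this difference. P2rx1, an ATP-gated cation channel, rose from 2.54, 2.34 and 2.31 CPM to 8.47, 3.21 and 6.89 CPM, a log2 fold change of 1.37 ± 0.31 (adjusted p = 0.00814, edgeR). Model 1 and Model 3, where it was highest of all libraries, are those with the most pancreatic RNA. The part of that tissue in the P2rx1 values was not tested. The gain was smallest in Model 2, and with Model 2 as the only Model library P2rx1 no longer passed. Itpr1, the calcium release channel of the endoplasmic reticulum, rose by 0.37 ± 0.09 (adjusted p = 0.00888, edgeR).

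Taking both lists together, 7 of 51 genes passed in Model against Ctrl, which is 5 higher and 2 lower, where 32.7% of all genes passed. In the other 3 comparisons 0 of 51 passed by edgeR, with 2, 5 and 11 genes at an unadjusted p under 0.05 in Model_Swim against Model, Ctrl_Swim against Ctrl and Model_Swim against Ctrl_Swim. Of all genes, 13.6%, 17.6% and 22.4% had such a p by edgeR in these comparisons. DESeq2 called 1, 2 and 2 of the 51. Serum response factor and 4 partners (Myocd, Mkl1, Mkl2 and Foxf1) gave 0 calls by edgeR in each comparison. Between Model and Ctrl their median log2 fold change was 0.06, with 1 gene at an unadjusted p under 0.05, beside 45.2% of all genes. Srf had 81.6 to 84.3 CPM in Ctrl and 66.7 to 86.4 CPM in Model, and Myocd 13.5 to 15.3 and 11.8 to 20.8 CPM.

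**Figure D4:**
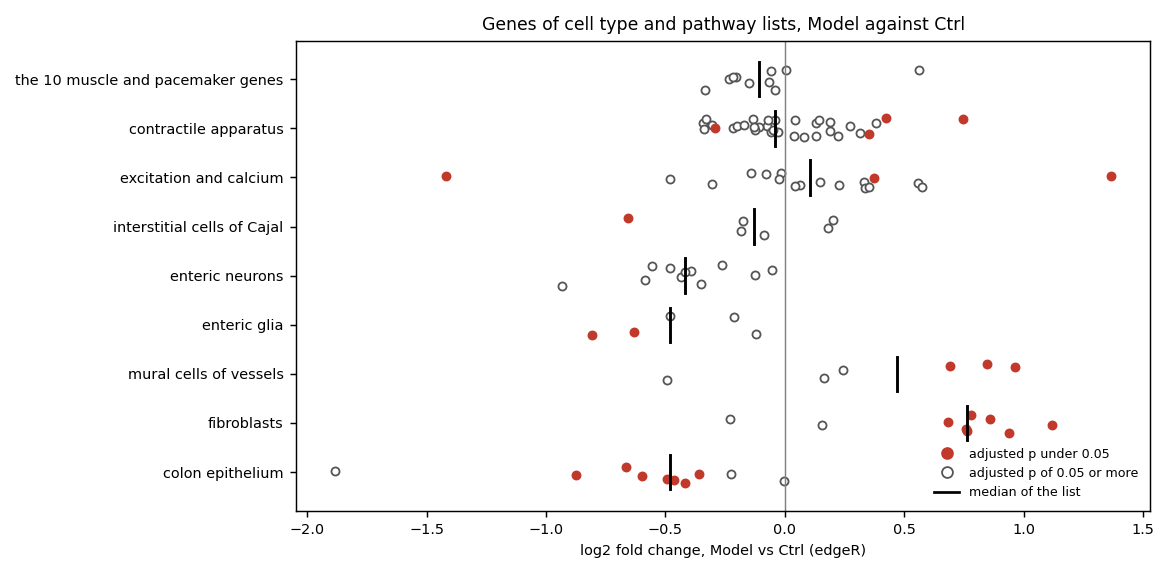
Log2 fold change between Model and Ctrl (horizontal axis, edgeR) of every tested gene of 9 lists, one row per list, with filled points for an adjusted p under 0.05, open points for the rest and a bar at the median of the list. The muscle and pacemaker rows centre near 0 (medians -0.11, -0.04, 0.10 and -0.13), the fibroblast row lies higher (0.76) and the epithelium row lower (-0.48).

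Markers of other cells of the bowel wall were counted in the same way, to be read against the 16.5% of all genes called higher and the 16.2% called lower between Model and Ctrl. The lists are short, and their shares were not tested against these. Of 9 fibroblast markers 7 rose in Model and 0 fell (median log2 fold change 0.76), with summed levels of 1622 to 1760.0 CPM in Ctrl and 2642 to 2946 CPM in Model. Col1a1 rose by 1.12 ± 0.18, Lum by 0.94 ± 0.13 and Col1a2 by 0.86 ± 0.12 on the log2 scale (adjusted p from 0.000973 to 0.00152, edgeR). Col3a1, with the highest CPM, had 556 to 637 CPM in Ctrl and 937 to 1035 CPM in Model, and Dcn 239 to 266 and 414 to 451 CPM. Of 6 markers of mural cells, the muscle-like cells around vessels, 3 rose and 0 fell. Notch3 rose by 0.96 ± 0.16, Pdgfrb by 0.84 ± 0.10 and Abcc9 by 0.69 ± 0.09, while Rgs5, with the highest CPM, had 339.6 to 388 CPM in Ctrl and 187 to 344 CPM in Model (log2 fold change -0.49 ± 0.18, adjusted p = 0.0532, edgeR).

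Of 10 epithelial markers 7 fell and 0 rose (median -0.48). Cdx2, the intestinal identity factor, fell by 0.87 ± 0.16 on the log2 scale, Krt8 by 0.67 ± 0.10 and Krt19 by 0.60 ± 0.10. Of 5 glial markers 2 fell (S100b by 0.81 ± 0.27 and Gfap by 0.63 ± 0.20) and 0 rose. Cdh19, a cadherin of glia, had 4.84 to 5.34 CPM in Ctrl and 3.43 to 6.14 CPM in Model. Of 11 enteric neuron markers 0 passed, with a median of -0.42 and 2 at an unadjusted p under 0.05, beside 45.2% of all genes. Vip had 33.4 to 39.5 CPM in Ctrl and 21.8 to 39.3 CPM in Model, and Nos1 27.3 to 31.0 and 12.3 to 36.3 CPM, lowest in Model 1.

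The tissues that do not belong to the colon wall were counted in the same way. All 11 pancreatic acinar genes passed as higher in Model, led by Model 1 and Model 3 (Ctrb1 at 7837 and 3316 CPM, 7.30 CPM in Model 2 and at most 6.32 CPM in Ctrl, and Cela2a at 7022, 3751, 7.19 and at most 5.85 CPM). Of 9 squamous genes 8 passed as higher, with Krt5 at 168, 462 and 1.15 CPM and Krt14 at 139, 343 and 1.15 CPM in Model 1, 2 and 3. Of 11 skeletal muscle genes 0 passed by edgeR, with 3 at an unadjusted p under 0.05, beside 45.2% of all genes. Acta1, the skeletal muscle actin, had 10.6 to 26.4 CPM in Ctrl and 67.2, 142 and 10.4 CPM in Model, and Ckm 24.2 to 33.2 and 18.8 to 68.0 CPM.

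In the other comparisons few of these listed genes passed. None did in Model_Swim against Model, and in Ctrl_Swim against Ctrl it was Cdh19 and Dcn alone, both higher. In Model_Swim against Ctrl_Swim, 3 mast cell, 3 mural and 4 fibroblast genes were higher, while Snap25 of the neurons and Cdh19 of the glia were lower. Of all genes, 3.49% were called higher and 1.69% lower there.

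The genes most like the members over the 12 libraries were found by the root-mean-square distance between log2 CPM profiles, each centred on its own mean, among all genes tested. The profile of Acta2 was nearest to those of Cald1 (0.067), Csrp1 (0.067) and Synm (0.076), beside its own SD of 0.170. Actg2 was nearest to Des (0.066), Csrp1 (0.090) and Tpm1 (0.101), beside an SD of 0.197. These neighbours are themselves a caldesmon, a LIM protein, intermediate filament proteins and a tropomyosin of muscle. The profile of Kit was nearest to Prkca (0.088), Slc17a9 (0.101) and Stx17 (0.105), beside an SD of 0.263. The profile of Ano1 was nearest to Anxa3 (0.131), Mfsd4a (0.154) and Unc119 (0.172), beside an SD of 0.435. Anxa3 had 137, 135 and 71.3 CPM in Model 1, 2 and 3 and 65.6 to 82.5 CPM in Ctrl, so, as for Ano1, Model 1 and Model 2 were above all Ctrl libraries and Model 3 was not. No listed gene of the interstitial cells of Cajal was among the 3 nearest to Kit or Ano1.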

How the data were processed

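RNA-seq of colorectal tissue was available for 12 libraries in 4 groups of 3, grouped by the labels. Per the study's methods, the authors trimmed reads of a stranded mRNA kit with Trimmomatic, aligned them with HISAT2 to GRCm38.p6, used HTSeq-count for the reads of each gene and Cufflinks for FPKM. Tool versions, the annotation release and strand setting are not given in the sources used here. The deposited tables hold these raw counts and FPKM values. The labels name the mirVana kit and the methods TRIzol for RNA extraction.

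The members, the other gene lists and the tests were chosen with earlier results of these data known. Counts were fitted with edgeR 4.0.16 (R 4.3.3) by its quasi-likelihood test in 1 fit of the 4 groups, with TMM scaling, a minimum count of 10 in filterByExpr and Benjamini-Hochberg adjustment over 15484 genes, and a gene was called at an adjusted p under 0.05. Where a sentence above gives an adjusted p without a tool, it is from this fit. SEs were the log2 fold change over the square root of F. Log2 CPM used a prior count of 2. FPKM served for levels between genes. The actin ratio was tested by exact permutation over the libraries.

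All members were named. Of each other list up to 3 called genes with the largest change between Model and Ctrl and a group mean of at least 1 CPM were named, for other cell types also the 2 of highest CPM (not per length), and for 4 members the 3 nearest profiles. Kitl, Srf, Myocd, Car1, Flna, Tpm1, Anxa3 and the genes named for the other comparisons were added after their values were seen. Older symbols in the table were matched (Mkl1 and Mkl2, for example), and the mast cell gene Tpsab1 was not analysed here. The values of 1 further gene that the rule names are not reported here.

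Same-numbered libraries of different groups did not deviate together as a rule, with a median correlation of 0.005 over 15 pairs, beside -0.03 for pairs with other numbers. Single same-numbered pairs ran from -0.26 to 0.56, with 4 over 0.1 and the highest for Ctrl_Swim 3 with Model 3. The numbers were not taken as pairs. Within groups, pairs of libraries differed by 7.40 to 115 times the variance that counting alone gives, so none was a repeated deposit. The alternatives were DESeq2 1.42.0, limma 3.58.1 on log2(FPKM + 1) and log2(FPKM + 0.1) with and without a minimum mean of 0.5 FPKM, other scalings and filters, the 2-fold cutoff, the replicate block and left-out libraries. The tests were checked on simulated counts.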

Additional observations from a re-analysis of the deposited data

How the results depend on the processing

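With 3 libraries per group, changes of the muscle genes within the intervals given above are not excluded. Of 1190 values of the members under 24 alternative settings (23 for the interaction), 8 passed the threshold, 154 changed sign and none of those 154 passed. Of the members in Model against Ctrl, leaving out single libraries gave 0 to 2 calls (Des without Model 2, Kit and Ano1 without Model 3), leaving out Model 1 and Model 3 together gave 2 (Kit and Ano1), and leaving out Model 2 and Ctrl_Swim 3, chosen after seeing the data, gave 2 (Actg2 at -0.39, adjusted p = 0.0325, and Des at -0.41, adjusted p = 0.0231, edgeR). In Model_Swim against Model the range was 0 to 1 (Ano1 without Model 3). For the 51 contractile and calcium genes in Model against Ctrl the count of 7 became 11 with total counts in place of TMM, 4 with the compared groups alone, 2 with the 2-fold cutoff, 13 without Model 1 and Model 3, and 4 to 13 with single libraries left out (4 without Ctrl 2 or Ctrl 3, 13 without Model 1). Their count of 0 became 1 in Model_Swim against Model by DESeq2, 0 to 1 with single libraries left out (P2rx1 without Model 2) and 1 without Model 2 and Ctrl_Swim 3. In Ctrl_Swim against Ctrl it became 2 by DESeq2 (Atp2a2 and Chrm3), 1 with the compared groups alone, 0 to 1 with single libraries left out (Chrm3 without Model 1, Model 3, Model_Swim 1 or Model_Swim 3) and 1 without Model 1 and Model 3. In Model_Swim against Ctrl_Swim it became 2 by DESeq2, 1 with the compared groups alone, 1 by limma on FPKM without a filter, 0 to 2 with single libraries left out (2 without Model 1, 1 without Model 3), 6 without Model 1 and Model 3 and 1 without Model 2 and Ctrl_Swim 3. The cause was not tested, apart from the smaller numbers of libraries and genes these settings themselves imply. Shares of all genes called with libraries left out are not given here. Calls of members and listed genes under those settings therefore cannot be set against a general rise or fall in calls. Total counts in place of TMM moved the median of all genes by 0.12 in Model against Ctrl, 0.13 in Ctrl_Swim against Ctrl and -0.14 in the interaction (log2). A term for the division of libraries by low pancreatic signal, added after seeing the data, called 0 members, but took Ano1 in Model_Swim against Model from -0.44 to -0.00, where the division coincides with the groups. The replicate block changed no call of a member (0 in each comparison) and gave 6 in place of 7 of the 51 genes between Model and Ctrl. Over all genes the block called 4322 in place of 5066 there, 26 in place of 11 in Model_Swim against Model, 1 in place of 150 in Ctrl_Swim against Ctrl and 40 in place of 802 in Model_Swim against Ctrl_Swim. DESeq2 called 350 genes in Model_Swim against Model, 649 in Ctrl_Swim against Ctrl, 1579 in Model_Swim against Ctrl_Swim and 750 for the interaction, where edgeR called 11, 150, 802 and 0. The actin ratio stayed at -0.16 with the block and kept its direction in every setting tried.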
